A study of Mus musculus with 32 samples.

Results

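Of 55419 mouse transcripts, 70 were high to a like extent in 3 kinds of sarcoma and low in control tissue, and they are described here library by library. The 70 were chosen by their measured levels. In each tumour type the median RPKM (reads scaled to transcript length and library depth) had to be at least 5. The lowest of the 3 tumour medians plus 1 had to be at least 8 times the control median plus 1. The highest tumour median plus 1 had to be under 3 times the lowest plus 1. The gain over the controls and the evenness among tumour types were therefore fixed by the choice and are given as a description, with no test. All 70 were among the 15230 transcripts that reached 1 RPKM in 6 or more of the 32 libraries, here called the tested transcripts.

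The study sequenced RNA from 13 clear cell sarcomas, 7 osteosarcomas, 6 synovial sarcomas and 6 controls. The clear cell sarcomas, whose titles carry EA1, were initiated by Rosa26CreER in 5 cases, TATCre in 4, Prx1CreERT2 in 2 and Bmi1IRESCreERT2 in 2. The osteosarcoma titles carry Rb1p53 with Col1Cre in 4 libraries and with Prx1Cre in 3, and the synovial sarcoma titles carry Myf5-SSM2/PLUC in all 6. Of the controls, 5 are titled Chest and 1 is titled Bone, with no tissue named beyond that. The labels give no age, sex, tamoxifen dose or time from Cre to tumour. All 4 TATCre titles end in a mark (RLN, Rleg, Lleg or Larm) that the other clear cell sarcoma titles lack. Among the osteosarcomas, Prx1CreRb1p53N28thigh and Col1CreRb1p53N26Right also carry such a mark. The labels do not explain these marks. The synovial sarcoma labels name no Cre, and a Prx1 driver occurs in both clear cell sarcoma and osteosarcoma. Each tumour type has its own marks in the titles (EA1, Rb1p53 or Myf5-SSM2/PLUC), so type and genotype cannot be told apart between types.

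Cre is a recombinase that cuts out or joins DNA between loxP sites and is used to switch on or delete a gene in chosen cells. A gene named before Cre gives the cells that make it: Prx1 is known for early limb mesenchyme and Col1 for bone-forming cells, while TATCre is a purified protein taken up by cells where it is placed. Myf5 is a gene of muscle precursors. Genes known to be raised in tumours of many origins against resting tissue include those of DNA replication, mitosis and matrix remodelling. The deposited table names transcripts by UCSC identifiers without gene symbols, so whether the 70 belong to such groups, and how muscle, bone or blood cell markers behaved, was not examined. Only 2 of the identifiers are printed, and the other transcripts are told apart by their length as recovered from the RPKM values.

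Library depth, recovered from the steps of the RPKM values, ran from 8.11 to 13.1 M (megareads) and overlapped between all 4 tissue types. One osteosarcoma, Prx1CreRb1p53N42, stood apart from the other tumours in the levels of the 70, and counts, means and correlations over the members that include it are given with and without it where it moves them. The controls Chest1 and Chest2 were the closest of all 496 pairs of libraries. Their recovered reads differed by 1.74 times the variance that sampling gives (chi-square per degree of freedom over 11756 transcripts), against 15.7 for the next closest pair. They differed beyond sampling noise and were kept as 2 libraries, though this does not show that they are separate samples.

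A pair of transcripts led the ranking by the ratio of lowest tumour median to control median among members of at least 100 bases whose tumour libraries all lay above all controls. The first, uc007wpn.2, has a recovered length of 166 bases. Its RPKM had a lowest, median and highest value of 52.1, 147.9 and 349 in clear cell sarcoma, 17.9, 165.9 and 387 in osteosarcoma, and 53.97, 120.9 and 149 in synovial sarcoma. The 6 controls ran from 1.69 to 6.50 with a median of 3.10, which are 3 to 13 reads per library. The lowest tumour was Prx1CreRb1p53N42 with 32 reads, and the next lowest osteosarcoma had 37.5 RPKM. The control level thus rests on few reads, while the lowest tumour was still above the highest control.

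The second, uc007swt.1, has a recovered length of 1302 bases and was backed by more reads. Its lowest, median and highest RPKM were 22.6, 88.7 and 239 in clear cell sarcoma, 136.8, 243.4 and 593 in osteosarcoma, and 51.7, 128.4 and 286 in synovial sarcoma. The controls ran from 1.92 to 3.75 with a median of 2.92, or 23 to 51 reads. The clear cell and osteosarcoma ranges overlapped, and the lowest tumour of all, the Rosa26CreER tumour R26CreEA1N4, had 282 reads. In the plot of both transcripts by library the tumour types overlap and the controls lie below all of them. On the RPKM + 1 scale the lowest tumour median was 29.7 times the control median for uc007wpn.2 and 22.9 times for uc007swt.1.

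**Figure D1:**
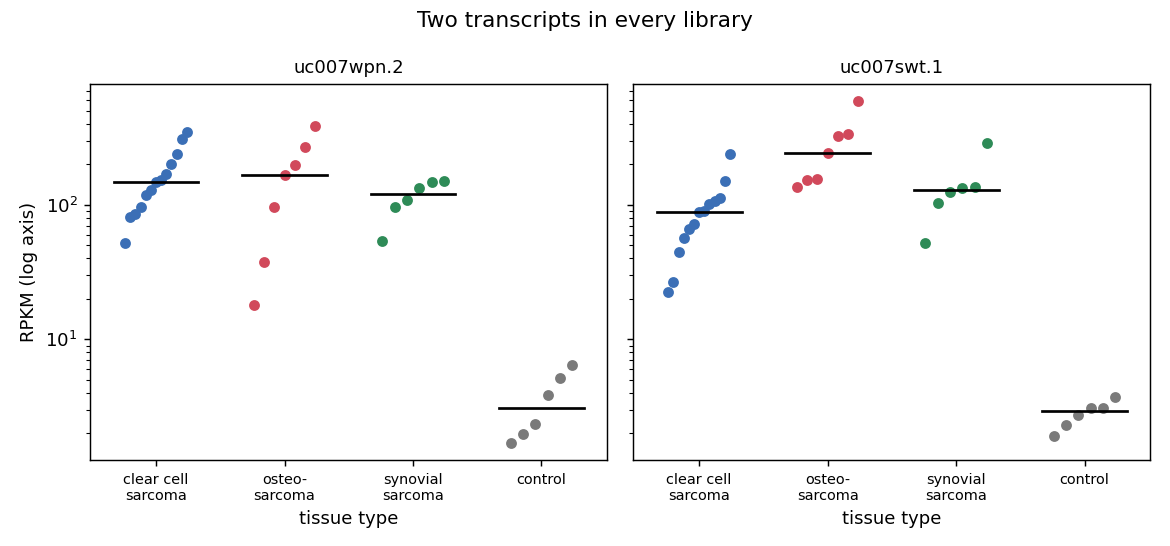
RPKM (log axis) of uc007wpn.2 and uc007swt.1 in each of the 32 libraries by tissue type; each point is a library, the points of a type are spread sideways in order of level, and the bars are medians. All 26 tumours lie above the 6 controls, whose highest values are 6.50 and 3.75.

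The 70 fell into 2 kinds by length, which the choice did not use. Of these, 41 had a recovered length of at least 100 bases, with a median of 1286 and a range of 107 to 8339, and are called the longer members. The other 29 (41.4%) were under 100 bases, against 10.5% of the tested transcripts, with 11 under 10 bases and 8 of 3 bases. The labels do not say what such lengths stand for. One read over 3 bases is worth 25.5 to 41.1 RPKM in these libraries, against 0.0595 to 0.0959 over 1286 bases. A short member therefore reached the level limit with few reads.

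The reads behind the values differed accordingly. The median over the 26 tumours was under 30 reads for 34 members, 26 of them short, and at least 100 reads for 32 members, 31 of them longer. The short members had a median tumour read count of 8 to 256.5, and the longer ones of 10 to 61458. Values listed at 0 made up 17.1% of the short members' tumour values and 52.3% of their control values, against 3.66% and 14.2% for the longer members. A value listed at 0 is not shown to be absence at such depths. The control median was 0 for 15 members, 11 of them short, so that no ratio is given for these.

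Those 15 include the 6 highest by the ratio that the choice used, all of at most 27 bases. Their median tumour read counts were 8 to 13, among the lowest of the 70, though other members far down the ranking had as few. One short member was different: a 5-base transcript with a median of 52 tumour reads lay above every control in all 26 tumours, at medians of 1135, 816 and 1384 RPKM in clear cell, osteo- and synovial sarcoma and 43.6 in the controls. Its control median rests on 2.5 reads.

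**Figure D2:**
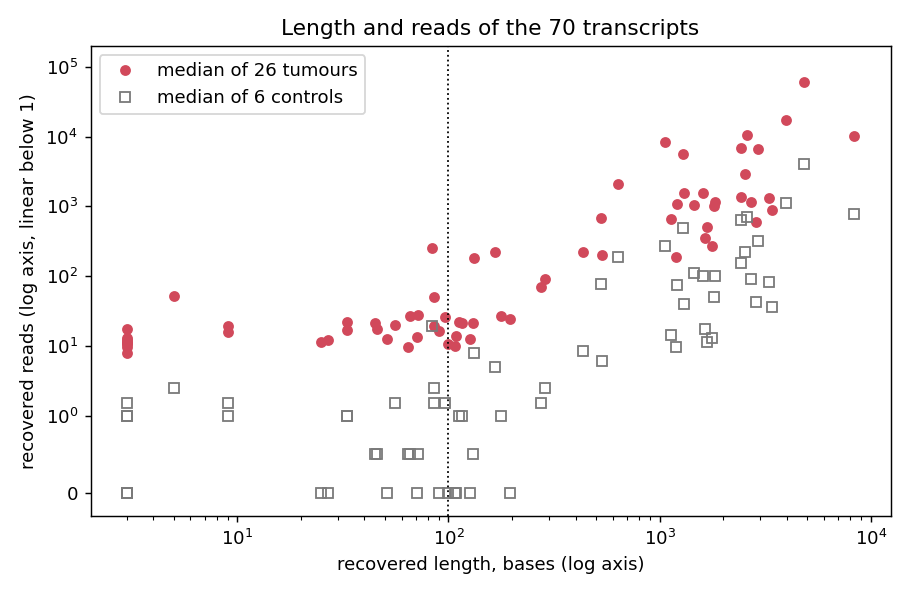
Recovered length (bases, log axis) against recovered reads (log axis, linear below 1) of the 70 transcripts; filled circles are medians over 26 tumours, open squares medians over 6 controls, and the dotted line marks 100 bases. Of the 34 members with under 30 tumour reads, 26 lie left of the line.

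Some transcripts just outside the limits lay close to members just inside. The nearest inside the 8-fold limit were transcripts of 177 and 85 bases at ratios of 8.02 and 8.07, and the nearest outside had 1466 and 2347 bases at 7.92 and 7.90. The nearest inside the evenness limit had 132 and 3 bases, with highest over lowest tumour medians of 2.98 and 2.96, and the nearest outside had 94 and 1714 bases at 3.23 and 3.42. The level limit kept out nothing that the ratio had let through, since an 8-fold ratio needs a tumour median of at least 7 RPKM. Without the evenness limit 94 transcripts would have been chosen, and 12 of the 24 it removed were under 100 bases. Membership also moved with the scaling and the controls: 36 of the 70 met the limits after median ratio scaling, 30 with class means in place of medians, and the count rose to 110 without Chest1 and 115 without Chest2. After median ratio scaling 40 transcripts met the limits, 18 of them of at least 100 bases, against 41 of the 70.

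The ratio gives the medians, and the spread over libraries shows how far the gain held in each tumour. In 13 of the 70 members every one of the 26 tumours was above every control, against 3.86% of the tested transcripts, a contrast that the choice used. Of the 13, 12 were longer members. Without Prx1CreRb1p53N42 the count was 27, with 26 longer members, against 5.67% of the tested transcripts. At the other end, a 127-base transcript with a median of 12.5 tumour reads was above every control in 11 of 26 tumours, and a 1668-base transcript with a median of 499 reads in 17 of 26.

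That 1668-base transcript varied by library more than by tumour type. Its median was 37.3 RPKM in clear cell sarcoma, 13.6 in osteosarcoma and 22.0 in synovial sarcoma, against 0.740 in the controls. In TATCre tumours it stood at 0, 33.8, 37.3 and 0 RPKM, and in Rosa26CreER tumours at 1.35, 64.6, 62.1, 59.2 and 0.222. Both groups held tumours at control level and tumours far above it, so its even medians did not mean even levels.

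The 12 longer members without overlap include both transcripts named above. Among the other 10, a 2523-base transcript was one of the most even. It ran from 74.5 to 196 RPKM in clear cell sarcoma, 26.9 to 130.1 in osteosarcoma and 65.7 to 181 in synovial sarcoma, with medians of 132.9, 114.3 and 123.01, and from 4.96 to 15.9 in the controls. A 1451-base transcript had medians of 76.7, 80.3 and 65.9 RPKM, with tumours from 21.1 to 236.5 and controls from 4.35 to 13.8. For both, the tumour medians lay closer together than the libraries of any one type.

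A pair in this group had high levels. A 1286-base transcript had medians of 459.8, 770.3 and 336 RPKM in clear cell, osteo- and synovial sarcoma, with tumours from 199 to 2855 and controls from 26.7 to 69.2. A 633-base transcript had medians of 355.9, 416 and 252 RPKM, with tumours from 94.0 to 1859 and controls from 15.5 to 36.6. Even the lowest tumour was above the highest control, by a smaller gap than the medians show.

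Another 5 were of moderate or low level in the tumours and near the floor in the controls. A 1809-base transcript had medians of 47.9, 51.3 and 86.3 RPKM against 2.88 in the controls, and a 3397-base transcript 22.9, 36.1 and 32.2 against 1.02. Transcripts of 1646, 2860 and 1194 bases had tumour medians between 14.2 and 36.3 RPKM and control medians of 1.03, 1.41 and 0.764. Their highest controls were 3.80, 4.48 and 2.92 RPKM, and their lowest tumours 4.35, 5.04 and 3.35, so these 3 just missed an overlap. The last, a 132-base transcript, was the least even of all 70, at 159, 225.7 and 74.9 RPKM against 5.35.

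Some abundant longer members overlapped the controls through a few libraries. A 4829-base transcript had the most reads of all, a median of 61458 in the tumours, with medians of 1248, 759 and 1450 RPKM against 86.8 in the controls. It was above every control in 24 of 26 tumours, with Prx1CreRb1p53N42 at 75.7 RPKM and Col1CreRb1p53N26Right at 134. The controls Chest3, at 309 RPKM, and Chest4, at 195.7, were above both of these tumours. Bone3, at 103.5, was above Prx1CreRb1p53N42 alone. Chest3 was the highest control for 17 of the 41 longer members. A 1056-base and a 3976-base transcript, at medians of 924 and 542 RPKM in clear cell sarcoma, varied together more closely than any other pair of longer members, with r = 0.96 over 26 tumours after type means were removed and 0.94 without Prx1CreRb1p53N42. The files do not say whether such a pair shares a locus and reads.

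The mean of log2(RPKM + 1) over the longer members gives 1 value per library. For the 13 clear cell sarcomas it was 5.87 ± 0.43 (SD), for the 7 osteosarcomas 5.69 ± 1.27, for the 6 synovial sarcomas 5.71 ± 0.56 and for the 6 controls 2.34 ± 0.31. The lowest, median and highest were 4.98, 5.90 and 6.44 in clear cell sarcoma, 3.06, 6.38 and 6.62 in osteosarcoma, 4.85, 5.83 and 6.29 in synovial sarcoma, and 1.89, 2.48 and 2.61 in the controls. Without Prx1CreRb1p53N42 the osteosarcomas averaged 6.12 ± 0.57 (SD, n = 6), with a lowest value of 5.24. Tumours and controls did not overlap, and the 3 tumour types did. Over all tested transcripts the same mean was, in that order, 3.34 ± 0.21, 3.27 ± 0.16, 3.68 ± 0.19 and 3.06 ± 0.16. In bulk tissue, more cells that hold a transcript and more of it per cell cannot be told apart.

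Over the short members the mean was 5.55 ± 1.26 in clear cell sarcoma, 5.36 ± 1.83 in osteosarcoma, 5.68 ± 1.67 in synovial sarcoma and 1.93 ± 1.11 in the controls. Without Prx1CreRb1p53N42 the osteosarcoma value was 6.03 ± 0.47. Here the groups overlapped: Chest1 and Chest2 stood at 3.35 and 3.27, above 3 tumours. Those were Prx1CreRb1p53N42 at 1.33, the TATCre tumour TATCreEA1N123-Rleg at 2.73 and the synovial sarcoma Myf5-SSM2/PLUCN37-4 at 2.85. The other 4 controls lay between 0.81 and 1.58. The 1574 tested short transcripts that are not members had means of 4.07, 3.44 and 4.73 in these 3 tumours and of 3.44 to 4.75 in the controls. By type, these other short transcripts averaged 4.32 ± 0.54, 4.61 ± 0.32 and 4.87 ± 0.39 in clear cell, osteo- and synovial sarcoma and 4.28 ± 0.46 in the controls. The gap between tumours and controls was thus far smaller for them than for the short members, which were chosen for it.

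**Figure D3:**
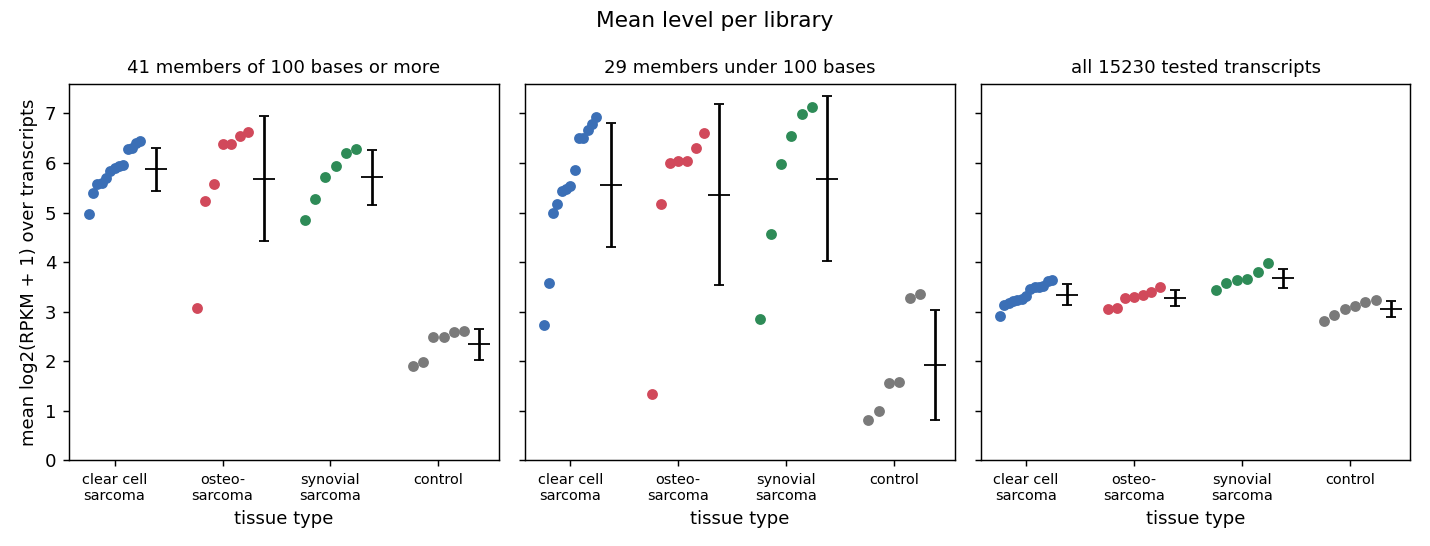
Mean log2(RPKM + 1) per library over the 41 longer members, the 29 short members and all 15230 tested transcripts, by tissue type; points are libraries in order of level, with the mean and SD beside them. The controls lie below all tumours for the longer members (highest 2.61, lowest tumour 3.06) but not for the short ones, where 2 controls stand at 3.35 and 3.27.

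Evenness of the medians went with a wide spread inside each type. The 3 tumour medians of a member spanned a median of 0.80 on the log2 scale, and the mean SD within a type had a median of 1.48. The choice held this span under a factor of 3 on the RPKM + 1 scale, which favours a span below the SD, so the counts are a description. The span was smaller than that SD for 61 of the 70 members and for 33 of the 41 longer ones. Without Prx1CreRb1p53N42 the median SD was 1.20 and these counts were 55 and 26. Osteosarcoma was the highest type for 33 members, clear cell sarcoma for 20 and synovial sarcoma for 17. Synovial sarcoma was the lowest for 28, clear cell sarcoma for 23 and osteosarcoma for 19. Without Prx1CreRb1p53N42 osteosarcoma was highest for 40 members and lowest for 12. No type was highest or lowest for all members, with or without that library.

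The members took 0.804% to 3.89% of the reads in clear cell sarcomas, 0.256% to 3.25% in osteosarcomas and 0.906% to 2.54% in synovial sarcomas, against 0.0659% to 0.256% in controls. The lowest tumour, Prx1CreRb1p53N42, had as large a share as the highest control to 3 digits, and the next lowest osteosarcoma had 0.645%. The heat map of all 70 by library shows the block of controls, the single low osteosarcoma and the zeros among the short members.

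**Figure D4:**
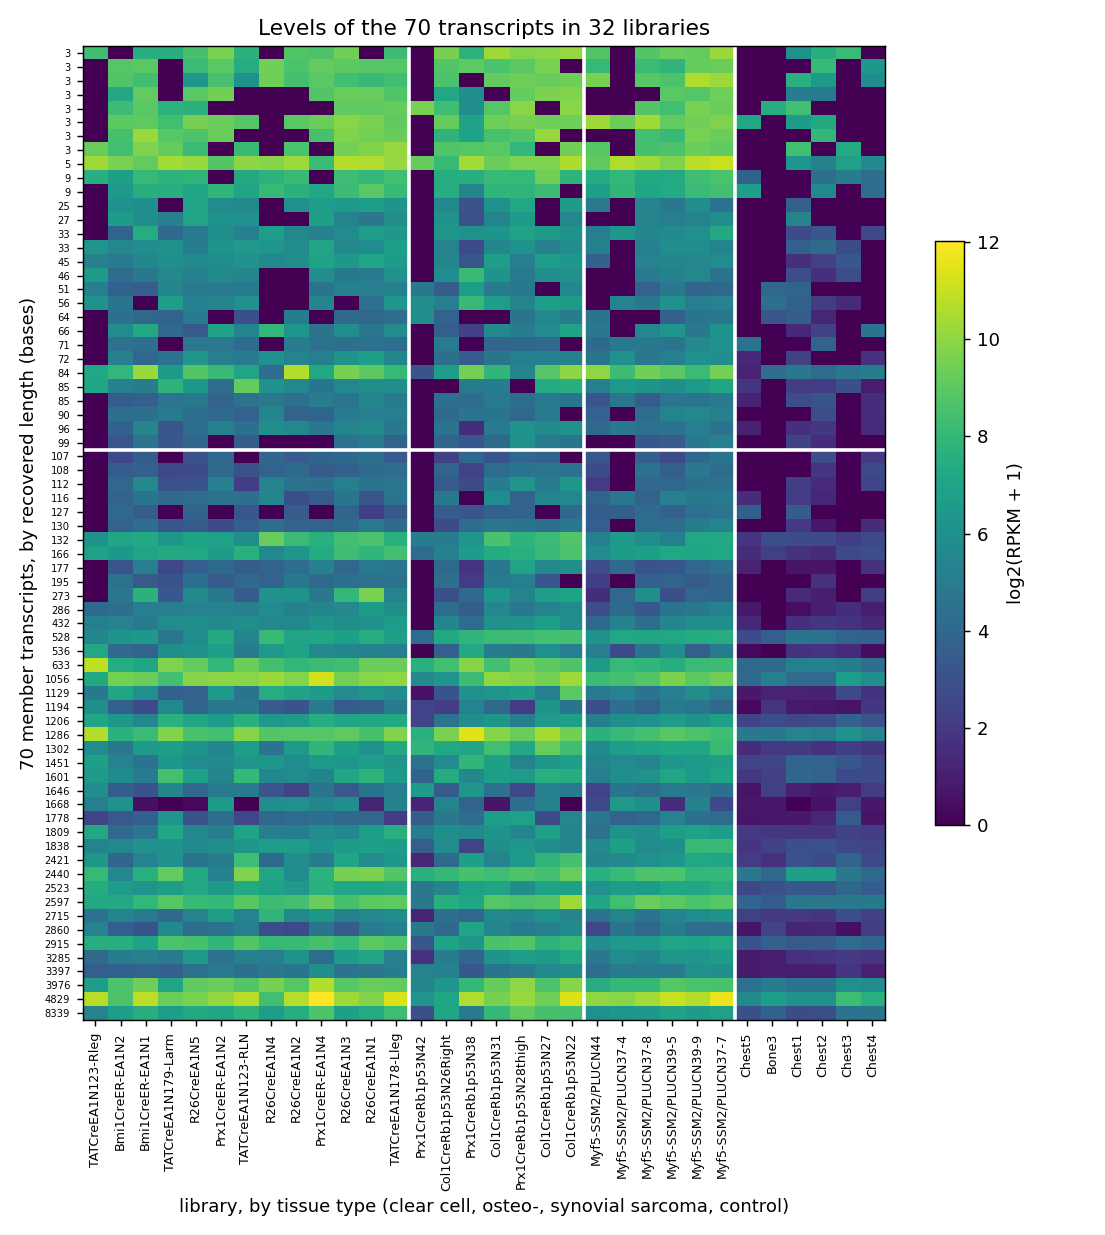
log2(RPKM + 1) of the 70 transcripts (rows, by recovered length, labelled in bases) in the 32 libraries (columns, by type and within a type by the mean of the longer members). White lines part the tissue types and the 29 short from the 41 longer members; of the 29 short members' control values 52.3% are at 0, and Prx1CreRb1p53N42, the first osteosarcoma column, has 35 of 70 at 0.

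The choice was repeated without each library in turn, and the members chosen were read in the library left out, which that choice had not used. In the 25 tumours other than Prx1CreRb1p53N42, between 40.0% and 98.4% of these members were at least 8-fold above the control median in the held-out tumour, against 3.09% to 8.86% of the tested transcripts. The lowest shares, 40.0% and 40.5%, were in TATCreEA1N123-Rleg and Myf5-SSM2/PLUCN44, and the highest in TATCreEA1N178-Lleg. In Prx1CreRb1p53N42 the share was 12.7%, against 2.16% of the tested transcripts. With a control held out, 29.6% to 69.1% of the members kept an 8-fold gap to it, the lowest in Chest2 and Chest1 (31.8%), against 0.552% to 2.35% of the tested transcripts. Only the library left out was outside the choice: the medians it was set against were ones the choice had required to be low in controls or high in tumours, which was not required of the tested transcripts. These shares are therefore a description of how far the libraries differed.

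Prx1CreRb1p53N42 had 20 members (28.6%) above every control, against 42 to 70 in the other tumours. Of the tested transcripts, 32.9% were above every control in it and 34.1% to 59.6% in the others. Its 20 members were 15 of the 41 longer ones, a share slightly above that of all transcripts, and 5 of the 29 short ones, a share below it. Against the median of the other 6 osteosarcomas its log2(RPKM + 1) differed by a median of -3.65 over the longer members and -0.10 over all tested transcripts. It was at least 8-fold below for 27 of the 41 longer members, against 6.19% of the tested transcripts. An 8-fold lower level on this scale needs at least 7 RPKM in the other osteosarcomas. The choice required such a level of the osteosarcoma median of members and not of the tested transcripts, so neither comparison is between transcripts of like level. A 432-base transcript stood at 0 in it against 60.4 RPKM, a 1129-base one at 0.494 against 73.5, and the 8339-base one at 6.65 against 307. Its depth of 10.8 M reads was inside the range of the others.

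Not every member was low in that tumour. Of the longer members, 5 were within 2-fold of the other osteosarcomas, among them uc007swt.1 at 243.4 against 240.5 RPKM. The other 4 were the 3397-base transcript (38.7 against 32.7), the 2860-base one (28.5 against 39.6), the 1809-base one (33.5 against 57.2) and a 2440-base one (194 against 355.3). The 1646-base transcript was higher, at 94.8 against 25.5 RPKM. All but the 2440-base one are among the 12 without overlap.

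**Figure D5:**
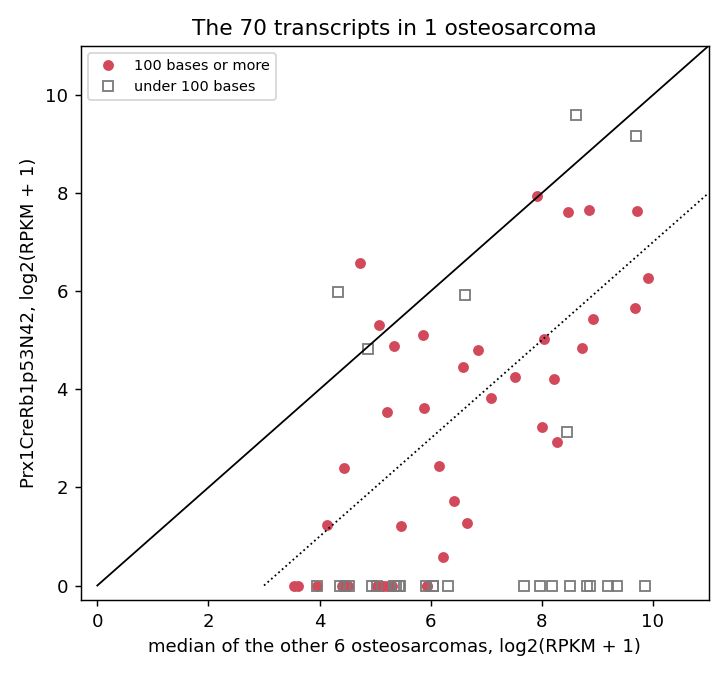
log2(RPKM + 1) of the 70 transcripts in the osteosarcoma Prx1CreRb1p53N42 against the median of the other 6 osteosarcomas; filled circles are longer members, open squares short ones, the solid line marks equal levels and the dotted line an 8-fold lower level. Of the longer members, 27 lie at or below the dotted line and 5 within 2-fold of the solid one.

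The split of the clear cell sarcomas by initiating Cre was not used by the choice and could be tested. The question was whether the members differ among tumours of 1 type begun by different Cre sources. What the marks in the TATCre titles stand for cannot be told apart from the Cre source. A moderated F test over the 4 Cre groups (limma on log2(RPKM + 1), Benjamini-Hochberg over 15195 transcripts, adjusted p under 0.05) called 10 of the 70 members, against 10.7% of all transcripts. As a share this is 14.3%, near the background. Of the 10, 7 were highest in TATCre tumours and 3 in Rosa26CreER tumours, a split that was not counted over all called transcripts. Over all 70, by group mean, 26 were highest in Prx1CreERT2, 19 in TATCre, 15 in Rosa26CreER and 10 in Bmi1IRESCreERT2, against 20.8%, 26.7%, 28.9% and 23.6% of all transcripts. Of the 7 longer members called, 6 are among the 12 without overlap, and all 6 were highest in TATCre.

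In the contrast of TATCre against Rosa26CreER, 10 members were called, 6 higher and 4 lower in TATCre, against 12.7% of all transcripts. The median log2 difference was -0.56 over the members, -0.35 over the longer members alone and -0.28 over all transcripts tested. Of the 6 members called in both tests, 3 stayed called in each of the 13 fits that left out 1 library, namely the 1286-base, the 1194-base and the 1809-base transcript.

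The 1286-base transcript stood at 927, 1574, 852 and 850 RPKM in the TATCre tumours and at 361, 459.8, 527, 452 and 382 in the Rosa26CreER tumours. The Prx1CreERT2 tumours had 334 and 463 RPKM and the Bmi1IRESCreERT2 tumours 288 and 207. Every TATCre tumour was above every other clear cell sarcoma. The log2 difference between TATCre and Rosa26CreER was 1.23 (SE 0.23, limma adjusted p = 0.00821, two-sided).

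The 1194-base transcript stood at 28.2, 62.7, 30.6 and 48.1 RPKM in TATCre tumours and at 11.9, 7.78, 10.2, 10.3 and 14.2 in Rosa26CreER tumours. The Prx1CreERT2 tumours, at 27.2 and 30.8 RPKM, overlapped the TATCre range, and the Bmi1IRESCreERT2 tumours, at 5.83 and 12.2, overlapped the Rosa26CreER range. The log2 difference between TATCre and Rosa26CreER was 1.82 (SE 0.29, limma adjusted p = 0.00367). TATCre and Rosa26CreER tumours did not overlap.

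The 1809-base transcript stood at 124, 144, 182 and 134 RPKM in TATCre tumours and at 107, 32.1, 47.9, 33.96 and 46.2 in Rosa26CreER tumours. The Prx1CreERT2 tumours had 35.9 and 58.3 RPKM and the Bmi1IRESCreERT2 tumours 24.96 and 16.4. Again every TATCre tumour was above every other clear cell sarcoma, by little against R26CreEA1N1. The log2 difference was 1.57 (SE 0.33, limma adjusted p = 0.0154).

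Like the 1194-base transcript, the 1646-base and 2860-base ones were called higher in TATCre than in Rosa26CreER tumours. For the 2860-base one the Prx1CreERT2 tumours, at 22.0 and 23.5 RPKM, lay below every TATCre tumour, the lowest of which was at 35.3. The log2 differences between TATCre and Rosa26CreER were 1.85 (SE 0.40) and 1.71 (SE 0.41) at limma adjusted p = 0.0172 and 0.0251. Both calls were lost without TATCreEA1N179-Larm, at adjusted p = 0.0517 and 0.0751, and the 2860-base one kept its call in 7 of the 13 fits. Across the 26 tumours, with type means removed, these 3 transcripts correlated at r = 0.81, 0.76 and 0.71 in pairs (0.91, 0.77 and 0.91 without Prx1CreRb1p53N42), which share libraries and depth. All 3 were taken up here because they were called higher in TATCre in these same libraries. Differences between Cre groups were not removed, so these r values partly restate that choice and are a description. The 4 members called lower in TATCre were longer transcripts of 107, 132, 273 and 3285 bases. None of these 4 stayed called in all 13 fits.

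Some called members had few reads or bases. A 9-base transcript differed by the F test at adjusted p = 7.91e-07 (limma), from 0 in both Prx1CreERT2 tumours against 111 to 334 RPKM in the other 11 clear cell sarcomas. Its median over all tumours is 19 reads. The Prx1CreERT2 tumours had 6 members at 0 each, and these were the same 6, of 3 to 127 bases. Of these 6, only the 9-base one was called by the F test. The 5-base transcript above was called by the F test at 0.00747, and a 56-base transcript was called higher in TATCre at 0.0457. The last was lost in 9 of the 13 fits that left out 1 library.

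The number of calls moved with single libraries, and so did the share of all transcripts called. The F test called 6 members without R26CreEA1N3, TATCreEA1N179-Larm, Prx1CreER-EA1N2 or Prx1CreER-EA1N4, against 5.64%, 5.04%, 5.86% and 5.97% of all transcripts, and 5 without Bmi1CreER-EA1N1, against 6.89%. The contrast of TATCre with Rosa26CreER called 4 without R26CreEA1N3, TATCreEA1N123-RLN, TATCreEA1N123-Rleg or TATCreEA1N179-Larm, against 5.75%, 6.08%, 7.65% and 4.84%. It called 5 without R26CreEA1N2, against 6.55%, and 18 without TATCreEA1N178-Lleg, against 21.4%. With the 2 TATCre libraries that share the number N123 averaged, it called 6, against 8.12%.

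Between the Prx1Cre and Col1Cre osteosarcomas, 0 of the 70 members were called by limma, against 0% of 12623 transcripts. At an unadjusted p under 0.05 the counts were 6 members and 570 of all transcripts. The median log2 difference, Prx1Cre minus Col1Cre, was -1.35 over the members and -0.23 over all transcripts, and the smallest adjusted p of a member was 0.977. Prx1CreRb1p53N42 is 1 of the 3 Prx1Cre libraries. Without it the count was still 0, with 4 members and 592 of 12266 transcripts at an unadjusted p under 0.05, and the median difference was -0.19 both over the members and over all transcripts. Without Prx1CreRb1p53N28thigh the count was 2, against 0.132% of 12118 transcripts. For uc007swt.1 the difference was -0.88 (SE 0.52), and -1.13 (SE 0.56) without Prx1CreRb1p53N42. For uc007wpn.2 it was -1.18 (SE 1.01), and -0.22 (SE 0.93) without that library, so differences of this size could not be told from the spread between these libraries.

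Members varied together among tumours. After the mean of each type was removed, the mean r over all pairs of longer members was 0.351 across 26 tumours and 0.217 without Prx1CreRb1p53N42. Over all tested transcripts of at least 100 bases it was 0.0496 and 0.0529. For the short members it was 0.318 and 0.224, against 0.0536 and 0.0523 over the 1574 tested short transcripts that are not members. Of the 820 pairs of longer members 692 were above 0, and the range was from -0.52 to 0.96. Without Prx1CreRb1p53N42, 579 were above 0. Over 26 tumours the lowest was between the 1646-base and the 177-base transcript. The pairs share libraries and depth. High tumour medians were required of the members and not of the tested transcripts, so these r values are not between transcripts of like level. They are a description.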

How the data were processed

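The authors deposited a table of RPKM values, with 1 column for each mouse library, from RNA made into TruSeq libraries per the labels' protocols. CASAVA 1.8.2, Novoalign 2.07.03 and mm9 are named per the submitters' processing notes, while the counting program and the source of transcript lengths are not given there. Columns were matched to libraries by title, and 0 were left over. A table of human tumours was not analysed here.

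The members and lists were chosen with earlier results of these data known. Depth, lengths and whole reads were recovered from the steps of the RPKM values (Python 3.11.15, numpy 2.4.6, pandas 2.3.3), a method tested on simulated data that included short lengths. Figures were drawn with matplotlib 3.10.9. Tests were limma 3.58.1 (R 4.3.3) with an intensity trend, two-sided, on log2(RPKM + 1), fitted on all transcripts that reached 1 RPKM in 2 or more of the 13 clear cell sarcomas or 3 or more of the 7 osteosarcomas, Benjamini-Hochberg adjusted, threshold 0.05, and tested on simulated data. A pseudocount of 1 understates changes of low transcripts. Named transcripts are the first 2 by ratio among members of at least 100 bases whose 26 tumours are all above all controls. Nothing says that libraries are separate animals (N123, 37 and 39 recur in titles), so p-values measure only the spread between libraries, which may be technical. Where transcripts overlap, counting could have split or shared reads. Leaving Prx1CreRb1p53N42 out of means, spreads and correlations was chosen after seeing the data.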

Additional observations from a re-analysis of the deposited data

Results flagged for a closer look

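In 29 sets of 4 to 7 libraries and 1 measure, 6 held a library far from the others by Dixon's ratio. For a single set of normal values chance flags about 1 in 20. The 29 sets share libraries and members, so the flags are not separate and an excess over chance is not shown. Of these, 3 concern Prx1CreRb1p53N42 among the 7 osteosarcomas: its mean log2(RPKM + 1) was 3.06 over the longer members and 1.33 over the short ones, and 20 members were above every control, as were 32.9% of the tested transcripts. Another 2 concern the 4 Col1Cre osteosarcomas: Col1CreRb1p53N26Right was lowest over the longer members at 5.24, and Col1CreRb1p53N31 highest over the short members at 6.30. The last is uc007swt.1 in the synovial sarcoma Myf5-SSM2/PLUCN37-7, at 286 RPKM.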

How the results depend on the processing

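The number of members depended on the processing. As a percent of the 70, it was 57.1% with median ratio scaling (40) and 61.4% with quantile normalization (43), of which 36 and 38 were among the 70. Transcripts of at least 100 bases were 18 of the 40 and 20 of the 43, against 41 of the 70. As a percent of the 70, other settings also moved the number. It was 175.7% with a pseudocount of 0.1, 31.4% with a pseudocount of 5, 21.4% at 16-fold and 58.6% with lengths of at least 100 bases. Median ratio scaling moved the median log2 tumour minus control difference of all tested transcripts by -0.36, -0.26 and -0.54 in clear cell, osteo- and synovial sarcoma. Class means gave 62 members, of which 30 were among the 70. Leaving out 1 library gave 90% to 164.3%, or 63 to 115 members, with 110 without Chest1 and 115 without Chest2; averaging these 2, an alternative chosen after seeing the data, gave 104. Members above every control in all 26 tumours numbered 13 to 27 without 1 library and 10 under either scaling. Of the tested transcripts 3.86% were so with all libraries and 5.67% without Prx1CreRb1p53N42, which gave the 27. The F test called 5 to 15 members without 1 library, against 6.89% and 16.5% of all transcripts in those 2 fits. The contrast of TATCre with Rosa26CreER called 4 to 18, against 4.84% to 7.65% at 4 and 21.4% at 18. That of Prx1Cre with Col1Cre called 0 to 2, against 0.132% at 2. Averaging the N123 libraries gave 6 in the TATCre contrast, against 8.12%. Scaling, pseudocount, filter and trend left the counts of all 3 tests within 1.5 times. With title numbers as a replicate block, possible only in 3 Cre groups without TATCre, the F test called 1 member (0.151% of all transcripts), and 3 in the same 9 libraries without the block (2.34%). After the mean of each Cre group was removed per transcript, same-numbered libraries correlated at -0.35, 0.38, 0.003, 0.005 and 0.006. In a Cre group of 2 libraries the deviations mirror each other, so these values are not separate from one another. They do not show a pairing and cannot exclude one. Members under 30 reads limit what depth can show, and counting error was not modelled.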
